A study of Mus musculus with 11 samples.

Results

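The genes of cholesterol synthesis, with the transcription factor SREBP2, the proteins that control it and a pair of its other targets, were followed in RNA from the small intestine of mice. The set was chosen by gene symbol, as a list of 27 named genes in pathway order, and all 27 were found among the 24294 symbols measured. All 27 also passed the filter on low values, which asked for at least 1 FPKM (a read count scaled to gene length and sequencing depth) in at least 3 libraries and kept 10764 genes. There were 3 libraries titled ND, 4 titled HFD and 4 titled HLJDD. HLJDD are the initials of Huang Lian Jiedu Decoction, a herbal preparation in the series title, which concerns obese mice, their lipid metabolism and a gut hormone. The labels used here give no strain, sex, age, dose or duration, do not spell out ND or HFD, and do not name the diet of the HLJDD mice or the stretch of small intestine taken. Nor do they tie libraries to separate animals, so p-values reflect the spread among libraries and that spread could be technical. The libraries held 30101888 to 37943272 reads in genes, and a single member rested on 92 (Pmvk) to 17104 reads (Hmgcs1) in a library.

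Cholesterol is built in the cytosol and endoplasmic reticulum from acetyl-CoA, by way of mevalonate, the isoprenoid diphosphates, squalene and lanosterol. SREBP2, encoded by Srebf2, is a membrane-bound transcription factor that the escort protein SCAP carries to the Golgi when sterols are scarce, where proteases release its active part. When sterols are ample, INSIG proteins hold SCAP in the endoplasmic reticulum and the genes of the pathway are transcribed less. The small intestine both absorbs cholesterol and makes it.

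Active SREBP2 binds sterol regulatory elements in promoters, beside the factors NF-Y and Sp1. RefSeq promoters (build GRCm38.p6, 250 bases before to 50 after a start) were listed for 23 of the 27 genes. Fdps, Fdft1, Sqle and Stard4 had no entry. The sequence form TCACNCCAC, or its reverse complement GTGGNGTGA, was found in the promoter of 1 member, Hmgcs1, and in 1.24% of all 32851 promoters. Its match, TCACCCCAC, began 137 bases before the start. The NF-Y box CCAAT, or ATTGG on the other strand, was in the promoters of 20 of the 23 genes. It was in 69.0% of their 29 listed promoters and in 37.4% of all promoters. The Sp1 box GGGCGG, or CCGCCC, was in those of 21 of the 23 genes, in 82.8% of their listed promoters and in 35.7% of all. Matches were counted whether or not motifs shared bases, a match is no proof of binding, and no match says only that these letters are not in the window.

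The 250 bases before the start of 3 members are printed below, because they stand for the gene with the TCACNCCAC match, the most strongly lowered gene with a promoter entry and the gene with the most positive log2 change in HFD. Idi1 and Insig1 were chosen for this after their values were seen. Capitals mark TCACCCCAC and every CCAAT or ATTGG, and each sequence is written 5′ to 3′ in the direction of its gene.
Hmgcs1 (chr13:119690101-119690350, plus strand): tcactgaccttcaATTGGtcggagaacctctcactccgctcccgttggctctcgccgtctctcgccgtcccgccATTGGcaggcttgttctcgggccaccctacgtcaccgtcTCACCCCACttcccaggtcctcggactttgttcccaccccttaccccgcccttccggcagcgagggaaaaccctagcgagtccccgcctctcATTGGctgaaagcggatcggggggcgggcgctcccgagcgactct
Idi1 (chr13:8885356-8885605, plus strand): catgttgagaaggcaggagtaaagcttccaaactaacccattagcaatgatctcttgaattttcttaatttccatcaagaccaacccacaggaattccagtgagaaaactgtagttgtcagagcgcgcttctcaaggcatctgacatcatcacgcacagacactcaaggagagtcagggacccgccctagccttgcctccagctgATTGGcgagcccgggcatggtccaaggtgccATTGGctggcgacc
Insig1 (chr5:28071162-28071411, plus strand): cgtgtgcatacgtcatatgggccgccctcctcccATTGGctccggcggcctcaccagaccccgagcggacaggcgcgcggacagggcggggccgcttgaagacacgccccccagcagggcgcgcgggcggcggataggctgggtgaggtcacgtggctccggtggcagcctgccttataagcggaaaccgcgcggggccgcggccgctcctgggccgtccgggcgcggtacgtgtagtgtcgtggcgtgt
The NF-Y boxes of Idi1 began 45 and 14 bases before the start, both in the opposite direction to the gene, and that of Insig1 began 216 bases before it. Insig1 held 3 Sp1 boxes and Idi1 held 1.

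**Figure D1:**
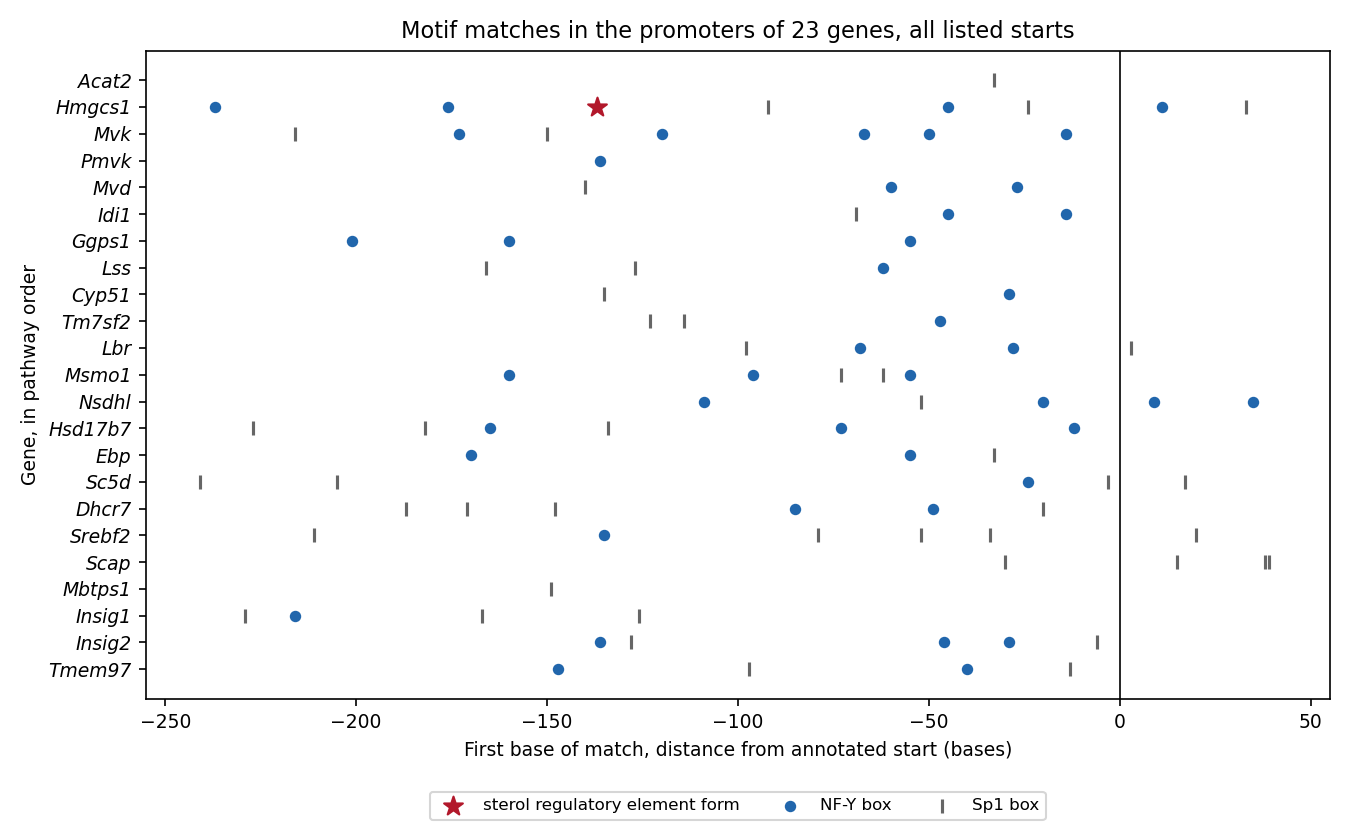
Matches of the sterol regulatory element form (star), the NF-Y box (circles) and the Sp1 box (ticks) in the promoters of 23 genes, by the distance in bases of the first base of the match from the annotated start, with all listed starts of a gene on 1 row. The single star is in Hmgcs1, 137 bases before the start, and 20 of the 23 genes have at least 1 circle.

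HFD was compared with ND to ask how these groups differ. In HFD 18 of the 27 genes were lower than in ND and 0 were higher, by limma over all 10764 genes at a Benjamini-Hochberg adjusted p under 0.05. Of all genes tested, 11.5% were lower and 5.06% were higher by the same rule. Sqle, Idi1, Cyp51, Fdps and Hmgcs1, all enzymes, fell most. Insig1, which codes for a protein that holds SREBP2 back, had higher values in every HFD library than in ND, and missed the threshold. The median log2 change of the 27 genes, taken as the difference between group means of log2(FPKM + 1), was -0.92, against -0.20 over all genes. That shift of all genes came to -0.01 when libraries were scaled by median ratios, where 1344 of all genes were lower and 1351 higher. After this scaling 20 members were lower and 0 higher, and their median log2 change was -0.69. By values alone, 23 of the 27 genes had every HFD library below every ND library, against 32.9% of all genes tested, and 1 gene, Insig1, had every HFD library above, against 9.57%. At an unadjusted p under 0.05, 1 gene (Insig1) was higher, and limma-voom on whole reads recovered from the FPKM values called 0 higher and 18 lower. No share of all genes is set beside these last counts. In whole tissue, fewer cells of a type and less RNA per cell cannot be told apart.

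**Figure D2:**
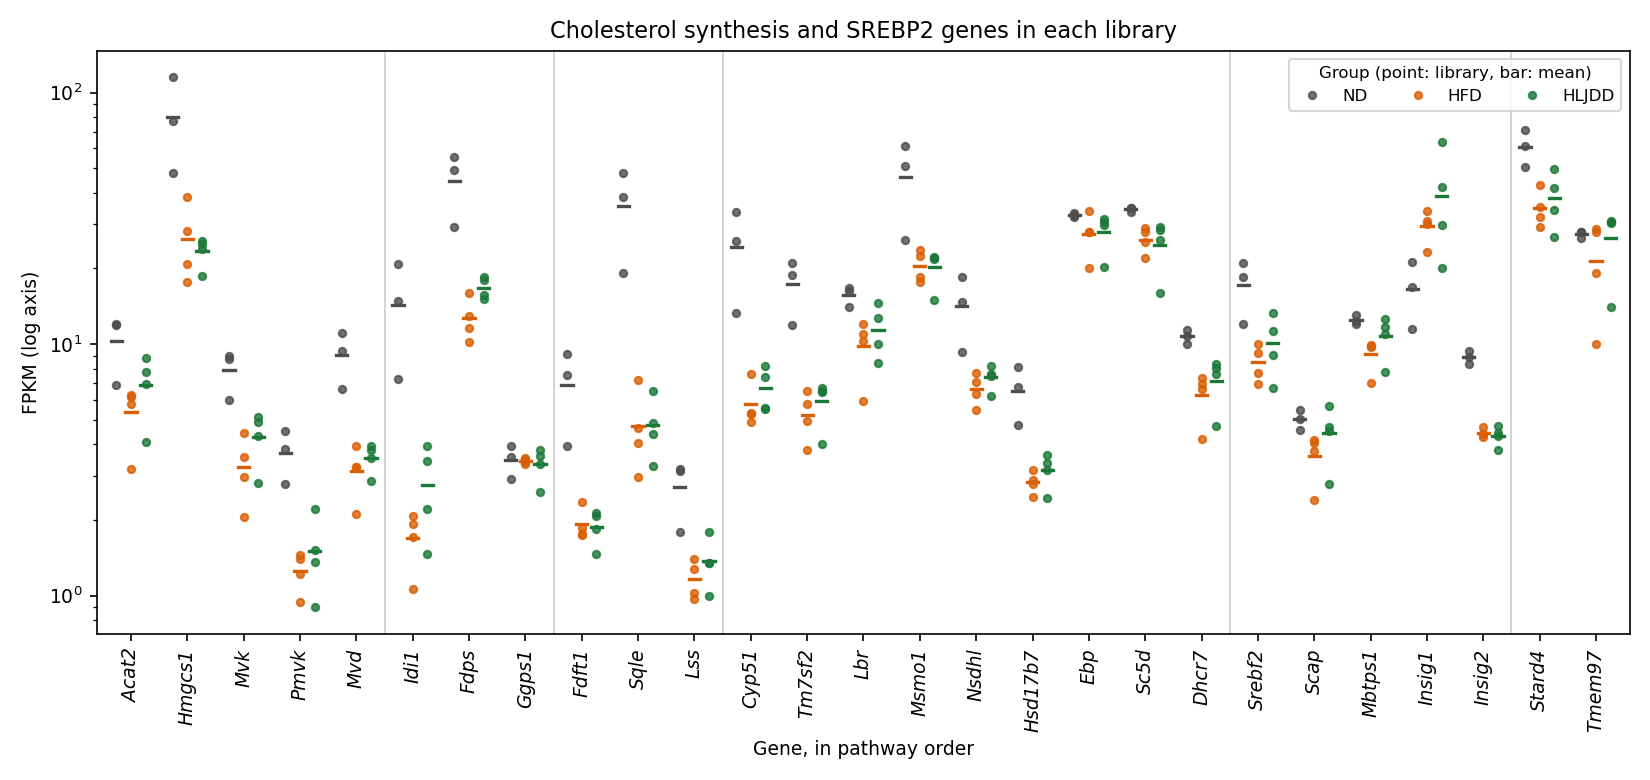
FPKM of the 27 genes (log axis) in pathway order, with 1 point per library, a bar at the group mean, and vertical lines between roles: ND in grey, HFD in orange, HLJDD in green. Every HFD point lies below every ND point in 23 genes, while every HFD point of Insig1 lies above its ND points, and HFD and HLJDD points intermix in all 27.

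The libraries differed in ways that moved with these genes. Fabp6, a bile acid binding protein of the ileum, stood at 9821, 6702 and 397 FPKM in ND replicates 1, 2 and 3, at 1.26 to 4.31 in HFD and at 0.212 to 2.27 in HLJDD. Among 9 kept genes of the distal small intestine, 7 were lower and 0 higher in HFD than in ND, and their list summed to 1615 to 12163 FPKM in ND, 379.5 to 559.9 in HFD and 340.7 to 612.7 in HLJDD. Of 9 kept genes of the proximal small intestine, 7 were higher and 1 lower, with sums of 1702 to 9943, 36026 to 49107 and 30073 to 51642. Gata4, a transcription factor of the proximal gut, was at 9.75, 15.5 and 24.7 FPKM in ND replicates 1, 2 and 3, 25.9 to 35.7 in HFD and 26.4 to 36.6 in HLJDD. Within ND most of the 27 genes followed the same order as Fabp6: 23 were lowest in replicate 3 and 20 were highest in replicate 1. Ebp, Sc5d, Mbtps1 and Tmem97 were not lowest in replicate 3. The shares of all genes with these orders were not counted. The summed FPKM of the 27 genes was 695, 591 and 419.9 in replicates 1, 2 and 3. The sums in HFD (229 to 315) and HLJDD (239 to 347) were below all 3. As shares of reads in genes, the 27 genes took 0.149% to 0.246% in ND, 0.0829% to 0.114% in HFD and 0.083% to 0.123% in HLJDD. Stretch of intestine and diet group cannot be told apart here.

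ND replicate 3, the ND library with the least Fabp6, was above every HFD library for 23 of the 27 genes, against 42% of all genes tested, and above every HLJDD library for 18, against 30.4%. When ND replicates 1 and 2 were left out, a choice made after seeing the data, 25 genes had a negative log2 change in HFD, with a median of -0.55, and Ggps1 and Insig1 a positive one. None of the 27 then passed limma's threshold, which rested on a single ND library assumed to vary like the other groups. At an unadjusted p under 0.05, 12 were lower and 1 higher, against 6.85% and 3.48% of all genes. Over all genes that fit called 25 lower and 12 higher. Transcripts of the mitochondrial genome took 32.4% of reads in HFD replicate 1 and 40.7% in HLJDD replicate 2, against 10.4% to 19.3% in the other libraries. These were the lowest libraries of their groups for 21 and 22 of the 27 genes, and after median-ratio scaling for 10 and 12. The factors of that scaling were 0.764 and 0.759 in these libraries and 0.997 to 1.15 in the others. Genes in general thus ran low in them, and the share of all genes lowest there was not counted. Without both of these libraries, 22 members were lower in HFD and 0 higher. No share of all genes is set beside this count, so the rise may not be particular to the members.

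Markers of other cells were counted in the same comparison. Of 12 crypt stem and proliferation genes, 0 passed, with a median log2 change of -0.54 and sums of 372 to 431 FPKM in ND and 131 to 436 in HFD. Unadjusted, 3 of them were lower at a p under 0.05, where 36.7% of all genes (3950 of 10764) had such a p in either direction. Lgr5, the crypt stem cell receptor, was at 0.72 to 1.99 FPKM in ND and 0.353 to 1.31 in HFD. Of 8 mature enterocyte genes 1 was higher, the brush border phosphatase Alpi (289 ± 53.1 FPKM in ND, 685 ± 182 in HFD, SD), and the list summed to 4959 to 5551 in ND and 2672 to 5148 in HFD. Smooth muscle (6 genes, 433 to 611 in ND and 147 to 582 in HFD), B cell (5 genes, 1.58 to 3.32 and 1.74 to 192), adipocyte (5 genes, 9.73 to 13.0 and 4.04 to 22.4) and macrophage genes (5 kept, 8.98 to 12.5 and 11.4 to 28.0) gave 0 calls. At an unadjusted p under 0.05, all 5 B cell, 2 adipocyte and 2 macrophage genes were higher and 0 smooth muscle genes differed. Acta2, smooth muscle actin, was at 93.6 to 132 FPKM in ND and 32.8 to 131 in HFD. Adgre1, a macrophage surface protein, was at 0.163 to 0.273 in ND and 0.106 to 0.216 in HFD, too low to pass the filter. The 5 kept macrophage genes went the other way, all with a positive log2 change in HFD (median 0.46). Of the pancreatic acinar genes, Pnlip was listed at 0 in 8 libraries, Cpb1 in 7, and Cpa1 and Ctrb1 in 6. The 1 acinar gene that passed the filter was not called, with a log2 change of 0.26 in HFD. The acinar list summed to 3.90 to 5.30 FPKM in ND and 3.69 to 7.54 in HFD. The part of these cells in the results below was not tested.

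The enzymes that lead from acetyl-CoA to isopentenyl diphosphate were lower in HFD for 4 of 5 genes, with a median log2 change of -1.08. Hmgcs1, the cytosolic synthase that joins acetyl-CoA to acetoacetyl-CoA, was the most abundant of the 27 in ND, per length. It stood at 115, 76.9 and 48.0 FPKM in the ND libraries, at 20.9, 38.4, 28.3 and 17.7 in HFD and at 24.0, 25.8, 25.1 and 18.7 in HLJDD. The ND libraries were thus above all others, although ND replicate 3 was only 1.25 times the highest HFD library. Its log2 change in HFD was -1.54 (SE 0.29, limma adjusted p = 0.00513). Its exons share 12.1% of their bases with Gm48342 on the other strand.

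Mvd, which decarboxylates mevalonate diphosphate, was at 11.1, 9.37 and 6.66 FPKM in ND, 3.26, 3.95, 3.24 and 2.12 in HFD and 2.85, 3.81, 3.92 and 3.54 in HLJDD. All ND values lay above 6 and all others below 4, and the log2 change in HFD was -1.27 (SE 0.19, limma adjusted p = 0.00135). Pmvk, the kinase one step earlier, was at 4.52, 3.83 and 2.78 FPKM in ND, 0.942, 1.45, 1.40 and 1.22 in HFD and 1.52, 0.899, 2.22 and 1.36 in HLJDD. The groups did not overlap with ND, and the log2 change in HFD was -1.05 (SE 0.19, limma adjusted p = 0.00341). Mvk, mevalonate kinase, averaged 7.90 ± 1.64 FPKM (SD) in ND and 3.25 ± 1.00 in HFD and was also lower. Acat2, the thiolase that makes acetoacetyl-CoA, averaged 10.3 ± 2.93 in ND and 5.36 ± 1.47 in HFD, with no overlap, and missed the threshold (limma adjusted p = 0.0551). After median-ratio scaling it was called lower (limma adjusted p = 0.0334). It has a near-identical copy in the mouse genome, Acat3, so its reads may have been shared and its level is uncertain.

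Of the isoprenoid enzymes, Idi1 and Fdps were lower in HFD and Ggps1 was not called. Idi1, the isomerase that makes the allylic isoprenoid unit, was at 20.7, 14.9 and 7.30 FPKM in ND, 1.06, 1.92, 2.07 and 1.71 in HFD and 3.44, 1.46, 3.95 and 2.21 in HLJDD. Its ND mean of 14.3 ± 6.74 FPKM (SD) was 8.46 times the HFD mean of 1.69 ± 0.44, the largest ratio of means among the 27 genes, and the log2 change was -2.42 (SE 0.31, limma adjusted p = 0.000634). Fdps, which condenses these units into farnesyl diphosphate, was at 55.3, 49.0 and 29.3 FPKM in ND, 10.2, 16.0, 13.0 and 11.6 in HFD and 18.4, 15.1, 15.7 and 17.97 in HLJDD. The 3 ND libraries were above all 8 others, and the log2 change in HFD was -1.70 (SE 0.21, limma adjusted p = 0.000506). It shares 26.7% of its exonic bases with Gm43738 on the same strand, so its level is uncertain.

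Ggps1 makes geranylgeranyl diphosphate, a branch that leads away from sterols to prenylated proteins. It was at 3.95, 3.56 and 2.92 FPKM in ND, 3.40, 3.53, 3.51 and 3.35 in HFD and 3.35, 2.58, 3.79 and 3.59 in HLJDD. The groups overlapped, and the log2 change in HFD of -0.00 (SE 0.13) had a 95% interval of -0.29 to 0.29. After median-ratio scaling the change was 0.19, so its direction depended on the scaling.

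All 3 genes of the steps through squalene to lanosterol were lower in HFD. Sqle (chr15:59315092-59331193, RefSeq, GRCm38.p6), the squalene epoxidase that makes the first oxygenated intermediate, was at 48.1, 38.6 and 19.2 FPKM in ND, 2.97, 7.18, 4.64 and 4.06 in HFD and 4.39, 4.85, 6.49 and 3.28 in HLJDD. Its lowest ND library was 2.68 times its highest HFD library. The log2 change of -2.62 (SE 0.31, limma adjusted p = 0.000437) was the most negative of the 27. Fdft1, squalene synthase, was at 9.16, 7.54 and 3.93 FPKM in ND, 1.74, 2.35, 1.86 and 1.76 in HFD and 1.84, 2.13, 2.07 and 1.47 in HLJDD, again without overlap (log2 change -1.37, SE 0.21, limma adjusted p = 0.0016). Its exons share 18.3% of their bases with exons of Ctsb on the other strand, and the strand setting of the counting is not given in the sources used here. Lss, which folds the epoxide into lanosterol, was at 3.18, 3.13 and 1.79 FPKM in ND, 0.968, 1.40, 1.28 and 1.02 in HFD and 1.35, 0.995, 1.80 and 1.35 in HLJDD. HFD lay below ND (log2 change -0.75, SE 0.17, limma adjusted p = 0.012), and ND replicate 3 overlapped HLJDD. The Lss call was lost without ND replicate 1 or ND replicate 2.

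Of the 9 enzymes that turn lanosterol into cholesterol, 6 were lower in HFD, with a median log2 change of -0.95. Cyp51, the lanosterol demethylase, was at 33.7, 25.8 and 13.3 FPKM in ND, 5.34, 7.63, 5.28 and 4.91 in HFD and 7.40, 5.53, 8.21 and 5.56 in HLJDD. ND replicate 1 had 2.53 times the level of ND replicate 3, which was above every HFD and HLJDD library. The log2 change in HFD was -1.82 (SE 0.26, limma adjusted p = 0.00119).

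Tm7sf2 and Lbr encode sterol reductases that act on the same double bond. Tm7sf2 was at 21.0, 18.9 and 12.0 FPKM in ND, 3.80, 4.95, 6.49 and 5.77 in HFD and 6.47, 4.02, 6.49 and 6.72 in HLJDD, with a log2 change in HFD of -1.53 (SE 0.22, limma adjusted p = 0.00119). Lbr, which is also a receptor of the inner nuclear membrane, averaged 15.6 ± 1.42 FPKM (SD) in ND and 9.82 ± 2.68 in HFD, with no overlap and no call (limma adjusted p = 0.0646). After median-ratio scaling Lbr was called lower (limma adjusted p = 0.0339). Before that scaling the pair gave log2 changes of -1.53 and -0.66, a difference that was not tested. Tm7sf2 shares 12.1% of its exonic bases with Vps51 on the same strand, so some of its reads may belong to that gene.

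Hsd17b7, a ketoreductase, was at 8.08, 6.73 and 4.77 FPKM in ND, 2.47, 3.16, 2.89 and 2.77 in HFD and 3.16, 2.45, 3.37 and 3.63 in HLJDD, without overlap with ND. Its log2 change in HFD was -0.96 (SE 0.16, limma adjusted p = 0.00291). Msmo1 (the sterol methyl oxidase), Nsdhl (a dehydrogenase of the same demethylation) and Dhcr7 (the reductase of the last step of one branch) were lower as well, with log2 changes of -1.06, -0.95 and -0.71. Msmo1 lost its call without ND replicate 1 or ND replicate 2, and Dhcr7 without HFD replicate 1 or any 1 of the ND libraries. Ebp and Sc5d, an isomerase and a desaturase of late sterols, did not pass. Ebp was at 32.0 to 33.2 FPKM in ND and 20.1 to 33.8 in HFD, and its 95% interval ran from -0.68 to 0.14 on the log2 scale. Sc5d was at 33.5 to 34.9 in ND and 22.0 to 29.0 in HFD, a separation without overlap but with a limma adjusted p of 0.151. Both were as high in ND replicate 3 as in the other ND libraries.

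**Figure D3:**
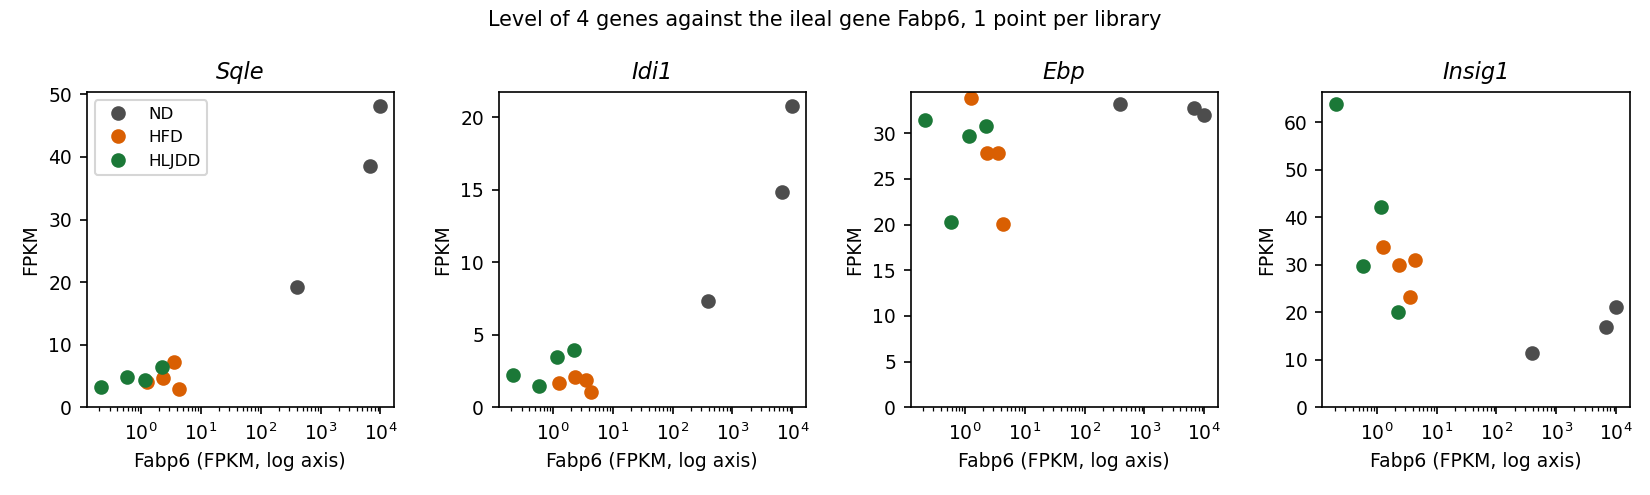
FPKM of Sqle, Idi1, Ebp and Insig1 (linear axes from 0) against FPKM of the ileal gene Fabp6 (log axis), 1 point per library: ND grey, HFD orange, HLJDD green. In ND, Sqle and Idi1 are lowest in the library with the least Fabp6 (19.2 and 7.30 FPKM), Ebp is level at 32.0 to 33.2, and Insig1 is lower in all 3 than in any HFD library.

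Of the 5 genes of SREBP2 and its control, 2 were lower in HFD, 0 were higher and 3 did not pass. Srebf2 itself, which is also a target of its own product, was at 21.0, 18.5 and 12.0 FPKM in ND, 6.95, 10.1, 9.21 and 7.66 in HFD and 11.3, 6.70, 13.3 and 9.05 in HLJDD. HFD lay below ND (log2 change -0.92, SE 0.23, limma adjusted p = 0.0201), while 1 HLJDD library was above ND replicate 3. The HFD call was lost without ND replicate 1 or ND replicate 2. Scap, the escort, was at 5.05, 5.46 and 4.55 FPKM in ND, 2.40, 3.76, 4.03 and 4.16 in HFD and 4.70, 2.79, 5.68 and 4.53 in HLJDD. Mbtps1, the protease that makes the opening cut in SREBP, was at 12.1, 13.1 and 12.4 FPKM in ND, 7.03, 9.78, 9.97 and 9.82 in HFD and 11.7, 7.77, 12.6 and 10.9 in HLJDD. Both had lower values in every HFD library than in ND and did not pass (log2 changes -0.41 and -0.42, limma adjusted p = 0.155 and 0.0961). Their ND libraries were close together, unlike those of Srebf2.

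Of the INSIG genes, Insig2 was lower in HFD and Insig1 did not pass. Insig1 (chr5:28071412-28078662), itself a known target of SREBP2, was at 21.2, 16.9 and 11.5 FPKM in ND, 30.9, 23.3, 30.0 and 33.8 in HFD and 42.1, 29.7, 20.1 and 63.8 in HLJDD. Every HFD library was above every ND library, but the log2 change of 0.82 (SE 0.32) had a limma adjusted p of 0.092. A fit of HFD and ND alone called it, with the adjusted p running from 0.0282 to 0.376 over the alternatives. Within ND, Insig1 was lowest in replicate 3, as most enzymes were. Insig2 (chr1:121304353-121332662) was at 9.40, 8.90 and 8.32 FPKM in ND, 4.66, 4.41, 4.28 and 4.41 in HFD and 4.44, 3.81, 4.71 and 4.30 in HLJDD. Before median-ratio scaling, its SDs in ND (0.54 FPKM) and HFD (0.16) were the smallest among the 18 lowered genes. In these values all ND libraries lay above 8 and all others below 5. The log2 change was -0.86 (SE 0.11, limma adjusted p = 0.000614). After median-ratio scaling the log2 change of Insig1 was 1.06 and that of Insig2 was -0.65. The SD of Insig2 in HFD was then 0.88 and no longer the smallest, against 0.11 for Pmvk. HFD replicate 1 stood at 6.11 and the other HFD libraries at 4.27 to 4.42, below 7.78 to 8.40 in ND.

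The other SREBP2 targets were 1 gene that passed and 1 that did not. Stard4, a carrier of sterol between membranes, was at 71.0, 61.2 and 50.8 FPKM in ND, 29.1, 43.0, 35.0 and 32.1 in HFD and 41.7, 26.6, 49.9 and 34.3 in HLJDD. HFD lay below ND (log2 change -0.79, SE 0.21, limma adjusted p = 0.026). The call was lost when HFD replicate 1 or 3, or ND replicate 1 or 2, was left out. Tmem97, a membrane protein that binds the lysosomal cholesterol transporter NPC1, was at 26.4, 28.0 and 28.0 FPKM in ND, 9.99, 19.3, 28.0 and 28.7 in HFD and 30.3, 14.0, 30.8 and 30.7 in HLJDD. Its low values were in HFD replicate 1 and HLJDD replicate 2, the libraries with the most mitochondrial reads, and in HFD replicate 2. The log2 change in HFD of -0.44 had a 95% interval of -1.19 to 0.30.

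**Figure D4:**
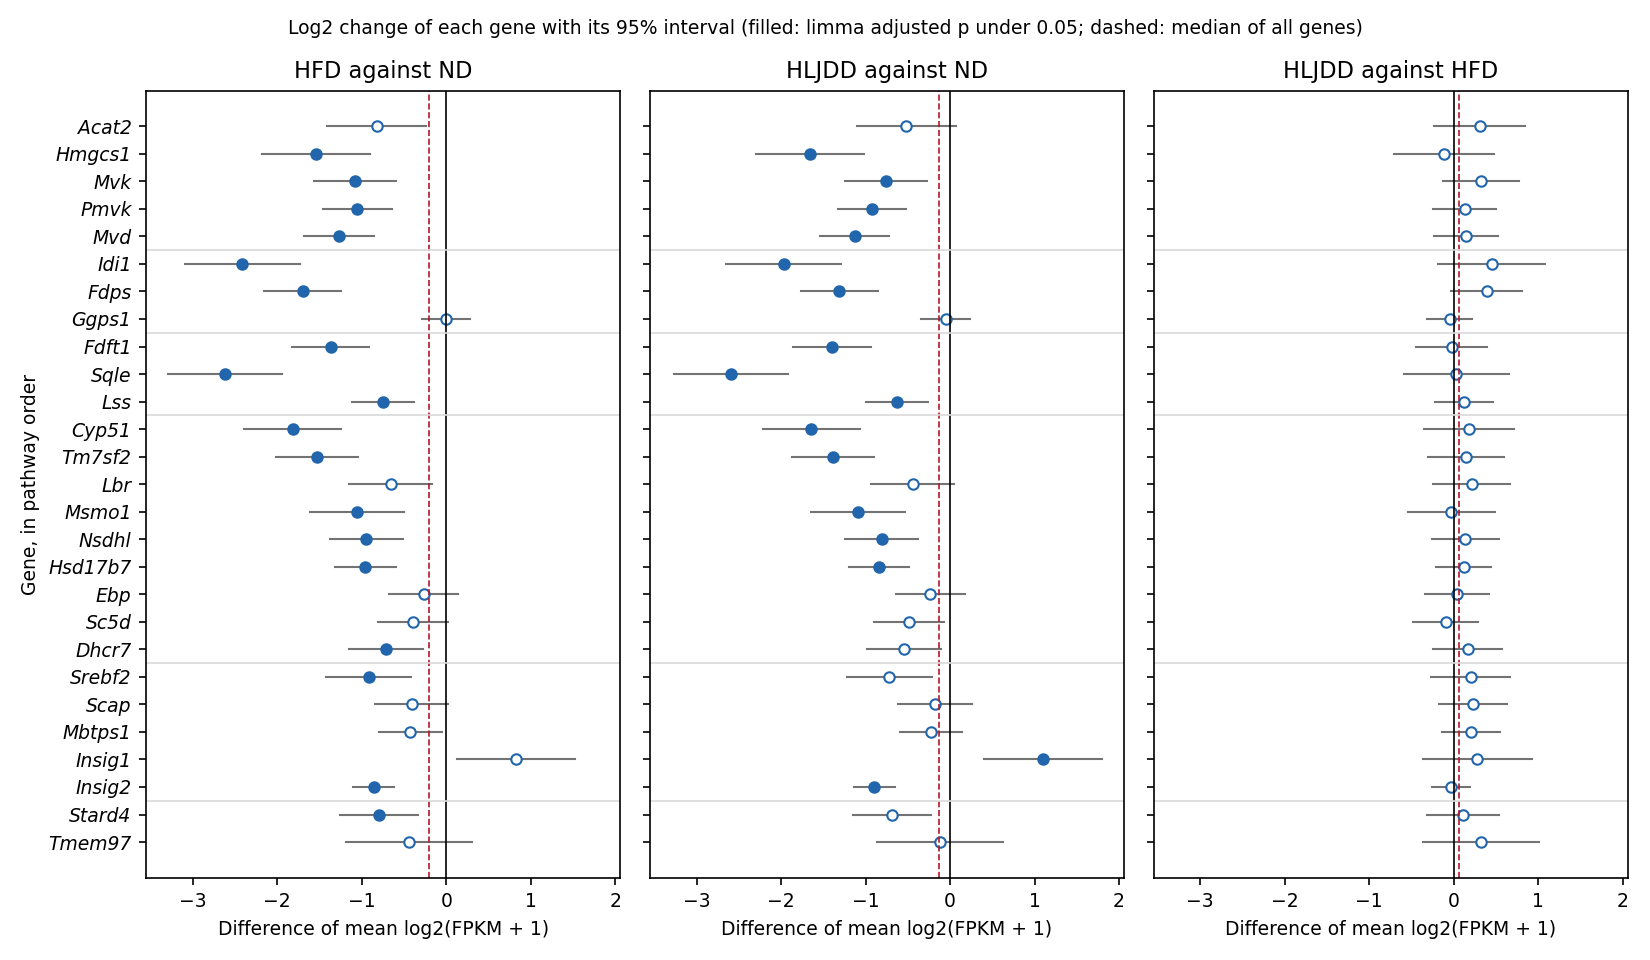
Log2 change of each gene (difference of mean log2(FPKM + 1)) with its 95% interval in 3 comparisons, with filled points for a limma adjusted p under 0.05, a solid line at 0 and a dashed line at the median of all genes. HFD against ND has 18 filled points, all below 0. HLJDD against ND has 16, of which Insig1 is above 0, and HLJDD against HFD has 0.

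HLJDD was compared with HFD to ask whether the decoction group differed from HFD. None of the 27 genes was called in either direction by limma, as was the case for all 10764 genes tested (0% lower and 0% higher). At an unadjusted p under 0.05 there were 0 members against 186 of all genes, and limma-voom on recovered reads also called 0. The smallest unadjusted p was 0.0688, for Fdps, which averaged 16.8 ± 1.66 FPKM (SD, n = 4) in HLJDD and 12.7 ± 2.47 in HFD (limma adjusted p = 0.999). Log2 changes ran from -0.11 (Hmgcs1) to 0.45 (Idi1), with a median of 0.14 against 0.06 over all genes, and 21 of the 27 were positive. Among the cell markers, 0 adipocyte genes were called. All 5 were higher in HLJDD at an unadjusted p under 0.05, with a median log2 change of 1.34. Of all genes, 1.73% had such a p in either direction. The crypt, enterocyte, smooth muscle, B cell and macrophage lists had 0 such genes. The part of fat cells in these values was not tested.

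The intervals bound what these libraries could show. For 25 of the 27 genes the 95% interval lay within 1 log2 unit of 0, and the bounds ran from -0.71 to 1.08 over all 27. The exceptions were Idi1 (-0.18 to 1.08) and Tmem97 (-0.36 to 1.01), whose upper bounds were just past 1. Sqle had a change of 0.03 with an interval of -0.59 to 0.66, and Insig2 one of -0.04 with an interval of -0.26 to 0.19. For Insig1, the mean was 38.9 ± 18.9 FPKM (SD) in HLJDD and 29.5 ± 4.45 in HFD. HLJDD replicates 1 and 4 were above all HFD libraries and HLJDD replicate 3 below them, and the log2 change of 0.28 had an interval of -0.37 to 0.93.

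HLJDD against ND shares the ND libraries with the comparison of HFD, so the results are set side by side and do not support each other. In HLJDD 15 of the 27 genes were lower than in ND and 1, Insig1, was higher, where 7.79% of all genes were lower and 4.1% higher. The median log2 change was -0.76 against -0.13 over all genes, and after median-ratio scaling 19 were lower and 1 higher (all genes: 1063 lower and 1011 higher). Every HLJDD library lay below every ND library for 18 genes (21.3% of all genes), and 0 genes had the opposite (8.3% of all). Sqle changed by -2.59 in HLJDD and -2.62 in HFD, Idi1 by -1.97 and -2.42, Fdps by -1.31 and -1.70, Hmgcs1 by -1.66 and -1.54, and Insig2 by -0.90 and -0.86. All 15 genes lower in HLJDD were also lower in HFD. Dhcr7, Srebf2 and Stard4, lower in HFD, did not pass in HLJDD (limma adjusted p = 0.0976, 0.064 and 0.0545).

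Insig1 was higher in HLJDD than in ND by 1.10 on the log2 scale (SE 0.32, limma adjusted p = 0.0448), although HLJDD replicate 3, at 20.1 FPKM, lay below ND replicate 1. This call was lost without any 1 of the ND libraries, of HFD replicates 2, 3 and 4 or of HLJDD replicates 1 and 4, and the adjusted p ran from 0.00973 to 0.308 over the alternatives. When ND replicates 1 and 2 were both left out, 25 of the 27 genes had a negative log2 change in HLJDD, with a median of -0.44, and 0 passed. Unadjusted, 11 were then lower and 1 higher at a p under 0.05, against 5.43% and 3% of all genes. Of 5 adipocyte genes, 4 were higher in HLJDD than in ND, among them Adipoq, the fat cell hormone, at 1.65 ± 0.45 FPKM (SD) in ND and 13.9 ± 5.30 in HLJDD. The part of these cells in the Insig1 values was not tested.

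Other genes of sterol and fatty acid metabolism were counted from lists kept apart from the 27. One list held 36 other sterol pathway genes (SREBP cleavage and sensor turnover, electron donors, the non-sterol isoprenoid branch and cholesterol transport inside cells). Of these, 5 were lower and 1 higher in HFD than in ND, with a median log2 change of -0.23. Of all genes tested, 11.5% were lower and 5.06% higher, with a median of -0.20, so the list lay close to all genes. After median-ratio scaling 6 were lower and 8 higher, against 1344 lower and 1351 higher of all 10764 genes. Cyb5r3, the reductase of cytochrome b5 that feeds electrons to sterol and fatty acid desaturases, averaged 46.5 ± 16.4 FPKM (SD) in ND and 130 ± 34.3 in HFD and rose by 1.49 on the log2 scale (limma adjusted p = 0.00782). Erg28, a scaffold of sterol enzymes, averaged 29.2 ± 2.51 in ND and 19.0 ± 2.27 in HFD and fell by 0.60. Dhdds, which extends isoprenoids toward dolichol, fell by 0.67, and Gramd1c, a carrier of cholesterol from the plasma membrane, fell by 0.80. The other lowered genes were Rnf145 and Rce1, named after their values were seen. Of the 9 genes of SREBP cleavage and sensor turnover, 1 (Rnf145) was lower and 0 were higher, also 0 at an unadjusted p under 0.05.

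Of 12 kept LXR targets and sterol transport genes, 2 were lower and 1 higher in HFD, against 11.5% and 5.06% of all genes. Their median log2 change was -0.07, against -0.20 over all genes, and after median-ratio scaling 2 were lower and 4 higher. Mylip, the ligase that marks lipoprotein receptors for breakdown, averaged 5.43 ± 1.65 FPKM (SD) in ND and 1.54 ± 0.79 in HFD (log2 change -1.36). Npc1l1, the brush border importer of cholesterol, averaged 187 ± 36.9 in ND and 99.7 ± 15.8 in HFD (log2 change -0.90). Srebf1, which codes for a transcription factor that drives fatty acid synthesis, was higher in HFD. It averaged 8.08 ± 1.53 FPKM in ND and 18.9 ± 3.86 in HFD and rose by 1.12 (limma adjusted p = 0.0453). Soat1, a cholesterol esterifying enzyme, had a log2 change of 0.61 and did not pass (limma adjusted p = 0.0675).

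Of 15 kept genes of fatty acid synthesis, 7 were lower in HFD and 0 higher, against 11.5% and 5.06% of all genes. Their median log2 change was -0.61, against -0.20 over all genes. At an unadjusted p under 0.05, 1 was higher, as was 1 at the adjusted threshold after median-ratio scaling. Scd2, a desaturase, averaged 30.0 ± 1.32 FPKM (SD) in ND and 3.66 ± 1.85 in HFD (log2 change -2.81, limma adjusted p = 0.0014). Aacs, which makes acetoacetyl-CoA from ketone bodies for lipid synthesis, fell by 1.04, and the elongases Elovl1 and Elovl5 fell by 1.08 and 1.31. The 7 called genes lay on the same side as the cholesterol enzymes in the HFD comparison. In HLJDD against HFD all 36, 12 and 15 kept genes of the 3 lists stayed uncalled by limma. At an unadjusted p under 0.05, 0, 0 and 4 were higher and 0 lower, where 1.73% of all genes had such a p in either direction.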

How the data were processed

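RNA was sequenced in 11 libraries, made from TRIzol extracts with a VAHTS Universal V6 kit, per the labels' protocols. The deposited values are FPKM per gene symbol, made by the authors. The submitters' processing notes name fastp, HISAT2, HTSeq and R 3.2.0, with mm10. Gene annotation and strand setting are not stated there. Reads came back whole for 24292 of 24294 symbols (within 0.01 reads, or 2e-08 of the count for large ones), giving each library's depth. Counting error is largest for the lowest genes.

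Libraries were grouped by title. Group means of log2(FPKM + 1) were compared with limma 3.58.1 (R 4.3.3), with a trended variance, two-sided p-values and all 11 libraries in 1 fit, without covariates. Adjustment over 10764 genes was Benjamini-Hochberg's, at a threshold of 0.05. This scale understates the change of low genes. The fit was tested on simulated data. Alternatives were another pseudocount (0.1), no filter, 2 other scalings, limma-voom on recovered reads, a fit of 2 groups, a replicate block and leaving out libraries.

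The members and lists were chosen with earlier results of these data known. Values in every library are given for up to 3 genes of each role with the smallest adjusted p in HFD against ND, for all regulators, and for any gene of opposite sign. The related lists give up to 4 genes with the smallest adjusted p. Of marker lists the first-named gene measured and genes at 0 are named, except 1 that is not reported here. Positions and promoters come from RefSeq (GRCm38.p6), and exon overlaps from GENCODE M21.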

Additional observations from a re-analysis of the deposited data

Results flagged for a closer look

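In 7 of 54 groups of 4 libraries (27 genes in HFD and in HLJDD), 1 library stood apart from the other 3 by Dixon's criterion at 95%. Chance meets it in about 1 of 20 independent groups, but these groups share the same libraries, so that rate is no yardstick for the count. The rate over all genes was not counted. Values were taken before median-ratio scaling, whose factors were lowest in HFD replicate 1 (0.764) and HLJDD replicate 2 (0.759). HLJDD replicate 2, the library with 40.7% mitochondrial reads, was low for Tm7sf2 (4.02 FPKM, others 6.47 to 6.72), Msmo1 (14.9, others 21.9 to 22.2), Ebp (20.2, others 29.7 to 31.4) and Tmem97 (14.0, others 30.3 to 30.8). HFD replicate 1, with 32.4% mitochondrial reads, was low for Acat2 (3.18 FPKM, others 5.79 to 6.28) and Mbtps1 (7.03, others 9.78 to 9.97). HFD replicate 2 was high for Cyp51 (7.63 FPKM, others 4.91 to 5.34). The part of the mitochondrial share in these values was not tested.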

How the results depend on the processing

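The count of members lower in HFD than in ND was 18 and ran from 14 to 22 over the other scalings, filters, pseudocount, tools and fits, and from 13 to 22 when 1 library was left out, with 0 higher throughout the latter. The count lower in HLJDD than in ND was 15 and ran from 11 to 19 and from 10 to 17, with 0 to 1 higher when 1 library was left out. Against ND, 13 members were called in HFD and 10 in HLJDD under all of these settings. Beyond the main fit and median-ratio scaling, no share of all genes is set beside these counts. Shifts in them may thus not be particular to the members. No called change turned its sign. Acat2, Lbr, Sc5d and Mbtps1, uncalled in HFD by the main fit, were called lower in some alternatives. Scaled to equal sums without mitochondrial transcripts, their limma adjusted p ran from 0.0106 to 0.0299. A fit of only the 2 groups compared gave 1 member higher in HFD (Insig1) and 0 in HLJDD, and no filter gave 0 higher in HLJDD. Without ND replicates 1 and 2, chosen after seeing the data, 0 members were lower in HFD, 0 lower in HLJDD and 0 higher in HLJDD, with ND down to 1 library. In HLJDD against HFD, limma and limma-voom gave 0 calls among the members under every alternative. With the replicate block, 14 were lower in HFD and 12 in HLJDD. Deviations from the group means in libraries of the same number had correlations from -0.22 to 0.37, the highest for HFD and HLJDD replicate 4. Libraries of different number were not compared, so these values cannot settle whether the numbers pair libraries. The labels state no pairing, and the main fit used none. Other causes of lost calls were not tested. Depth limits the lowest gene most, Pmvk, with 92 reads in 1 library.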
